A study of Rattus norvegicus with 24 samples.

Results

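KIRA9 was given to INS1 cells with induced IRE1α. Their RNA at 4 h was compared with that of induced cells given the drug vehicle. The comparison was set by the labels: it takes the 3 libraries whose titles name doxycycline induction, KIRA9 and 4 hours and the 3 whose titles name doxycycline induction, vehicle and 4 hours, 6 of the 24 libraries of the series. INS1, derived from a rat insulinoma, serves as a stand-in for pancreatic beta cells. All groups carry the same doxycycline-inducible mouse IRE1α (Ern1) transgene. The groups used are KIRA9-treated induced cells, PAIR1-treated induced cells, induced cells given vehicle, and uninduced cells. Uninduced cells received vehicle without doxycycline or compound. Each group has 3 libraries at 4 h and 3 at 24 h. The titles do not say whether these hours count from induction or from the addition of compound. The labels name neither the dose of a compound nor whether the line is 1 clone. No group received a compound without doxycycline, so effects of KIRA9 that do not depend on the transgene cannot be told apart from those that do. Uninduced cells differ from the others in doxycycline itself as well as in the transgene.

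IRE1α is a sensor in the membrane of the endoplasmic reticulum (ER) that carries a kinase and an RNase domain. When unfolded proteins build up it forms oligomers, its kinase domain phosphorylates the partner molecules, and its RNase splices the mRNA of the transcription factor XBP1 and cleaves other mRNAs at the ER membrane. Compounds of the KIRA type (kinase-inhibiting RNase attenuators) bind the kinase domain and lower the RNase output, whereas the PAIR type was described as a partial antagonist. Beta cells make and fold large amounts of proinsulin, which is why this arm of the unfolded protein response is studied in them.

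The deposited table gave raw read counts for 26689 Ensembl gene IDs without gene names, and 0 of them could be found in the table of gene names at hand. Results are therefore given for IDs, at most 2 that were higher and 2 that were lower are printed, and the lists of unfolded protein response, insulin and cell type marker genes could not be read. The level of the induced gene was likewise not checked against the labels, and no promoter or protein could be assigned to an ID. The KIRA9 libraries held 14.9, 15.1 and 16.9 M counts and the induced vehicle libraries 20.7, 14.9 and 17.0 M counts. Levels are in counts per 1 M counts (CPM) after TMM scaling, and 13760 IDs passed the filter on low counts. An ID is called when its adjusted p is below 0.05 in edgeR's quasi-likelihood test with Benjamini-Hochberg adjustment over the 13760 IDs, fitted to all 24 libraries. Nothing in the labels says that replicates came from separate cultures, so p-values measure the spread between these libraries, which may be technical.

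One of the 6 libraries stood apart. Induced vehicle replicate 3 was among 6 libraries of the series in which a block of 41 IDs, picked because they were higher there than in any other library, took 0.667 to 0.744% of counts, against 0.0705 to 0.0853% in the other 18. The other 5 were replicate 2 of uninduced cells at 4 h and again at 24 h, replicates 1 and 2 of induced vehicle cells at 24 h, and PAIR1 replicate 1 at 24 h; none was a KIRA9 library. Of the 41 IDs, 0 were called for KIRA9 against induced vehicle cells at 4 h. Among all IDs tested, 6.01% were called higher and 5.66% lower. By their choice the 41 IDs were high in replicate 3 alone of the induced vehicle libraries at 4 h. That spread makes a call unlikely, so the 0 cannot show whether this library affected the calls. Counts of calls with and without replicate 3 are given below, beside counts without other libraries.

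KIRA9 changed the RNA of induced cells widely at 4 h, mostly by small amounts. Of the 13760 IDs, 827 were higher (6.01%) and 779 were lower (5.66%) in KIRA9-treated cells than in induced vehicle cells. The median log2 change was 0.34 among the IDs called higher and -0.21 among those called lower, and the extremes were 3.70 and -4.58. At least 2-fold differences were seen in 57 IDs that were higher and 16 that were lower. The median over all IDs tested was -0.0023 on the log2 scale. Without induced vehicle replicate 3 the counts were 615 higher and 513 lower, and 1086 of the 1128 calls left were among the 1606 made with all libraries, in the same direction. With all 6 libraries of the set left out, 966 IDs were called. Leaving out any other 1 of the 6 compared libraries instead left 1168 to 1324 calls, so fewer libraries alone also lowered the count. Without KIRA9 replicate 2 the lower calls numbered 512.

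**Figure D1:**
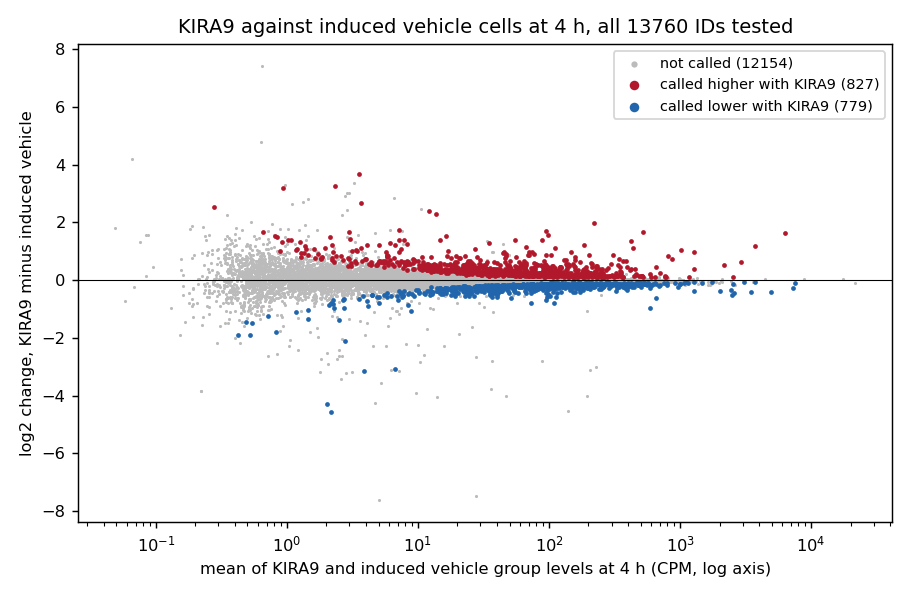
Each point is 1 of the 13760 IDs. The horizontal axis (log) is the mean of the KIRA9 and the induced vehicle level at 4 h in CPM and the vertical axis is the log2 change, KIRA9 minus induced vehicle; 827 IDs called higher are red and 779 called lower are blue, and most called points lie within 1 log2 unit of 0.

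The groups of libraries seldom overlapped where an ID was called. For 809 of the 827 higher IDs every KIRA9 library lay above every induced vehicle library, and for 759 of the 779 lower IDs every KIRA9 library lay below. Over all IDs tested, 14.0% were without overlap and higher and 14.1% were without overlap and lower. In their levels summed per library, the IDs called higher took 10.9 ± 0.010% of counts in KIRA9 libraries and 7.92 ± 0.041% in induced vehicle libraries (SD, n = 3 each). The IDs called lower took 13.9 ± 0.021% in KIRA9 libraries and 16.0 ± 0.058% in induced vehicle libraries. The overlap counts of called IDs and these shares describe IDs selected for the difference and are not a test of it.

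Calls and their sizes varied with abundance, as seen in 4 bands of 3440 IDs each ordered by mean level. In the lowest band, 0.162 to 6.16 CPM, 2.41% were called higher and 1.02% lower. In the highest band, from 69.7 CPM upward, 8.95% were higher and 13.4% lower. The median called change shrank as the level grew, being 0.83 for higher and -0.89 for lower IDs in the lowest band, and 0.22 and -0.17 in the highest. At low counts only large changes can be called, and at high counts small ones can be too. These shares and medians therefore do not show whether KIRA9 acted differently on rare and abundant RNAs, which was not tested. Of the 16 IDs at least 2-fold lower, 15 were in the lowest band and 1 in the next. Rises of at least 2-fold reached further up, with 31, 11, 5 and 10 IDs in the bands counted from the lowest to the highest. Of the 100 IDs most abundant in uninduced cells at 4 h, 8 were called higher and 25 lower with KIRA9. The shares were 6.01% and 5.66% over all IDs, and 8.95% and 13.4% in the highest band.

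**Figure D2:**
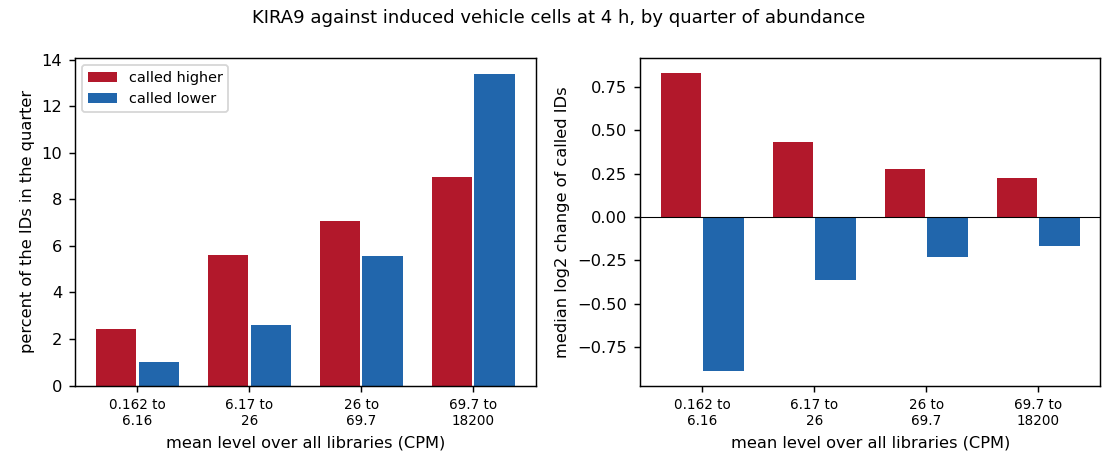
The 13760 IDs are divided into 4 bands of 3440 by their mean level over all libraries (CPM, horizontal axis). The left panel gives the percent of each band called higher (red) or lower (blue) in KIRA9 than in induced vehicle cells at 4 h, and the right panel the median log2 change of the called IDs; lower calls outnumber higher ones in the highest band alone, 13.4% against 8.95%.

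Distances over the 9408 IDs with a mean of at least 10 CPM placed the KIRA9 libraries away from both vehicle groups and nearer to PAIR1. The root mean square log2 difference between a KIRA9 and an induced vehicle library had a median of 0.243 (range 0.228 to 0.319, 9 pairs). Between a KIRA9 and an uninduced library it was 0.248 (0.220 to 0.315), and between a KIRA9 and a PAIR1 library 0.204 (0.188 to 0.218). Pairs of KIRA9 libraries differed by 0.182 to 0.189 and pairs of induced vehicle libraries by 0.211 to 0.290. The widest of these values came from induced vehicle replicate 3 and uninduced replicate 2. Without those libraries every KIRA9 to induced vehicle pair (0.228 to 0.245) lay above the remaining pair within induced vehicle (0.211) and above every pair within KIRA9. Induced vehicle and uninduced libraries then differed by 0.186 to 0.210. No test was made of these distances, since pairs share libraries.

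**Figure D3:**
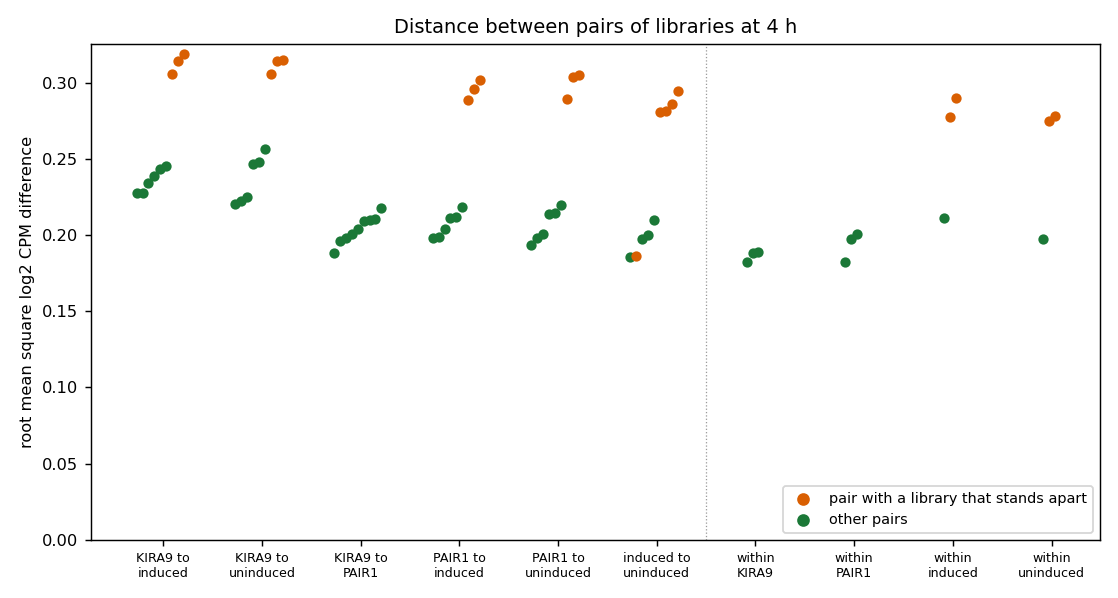
Each point is 1 pair of libraries at 4 h. The vertical axis is the root mean square log2 CPM difference over IDs with a mean of at least 10 CPM, pairs between groups are left of the dotted line and pairs within a group are right of it; pairs with a library that stands apart are orange and reach 0.319, and KIRA9 to induced vehicle pairs without it lie at 0.228 to 0.245.

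ENSRNOG00000018294 had the smallest adjusted p of all IDs and was chosen for that after its values were seen. It stood at 9687, 9438 and 9653 CPM in the KIRA9 libraries, against 3057, 3076 and 3024 CPM in the induced vehicle libraries. The groups were far apart, and within each the libraries differed by a few percent. The log2 change was 1.65 ± 0.02 (SE), a 3.14-fold higher level, with an adjusted p of 4.7e-23. PAIR1 libraries lay between the groups at 6105, 5996 and 6093 CPM. Uninduced libraries, at 2985, 3147 and 3141 CPM, overlapped the induced vehicle libraries, and that difference was not called (-0.02 ± 0.02, adjusted p = 0.97). At 24 h the rise over induced cells was small: the ID was at 3313 ± 74.5 CPM with KIRA9 and 3099 ± 61.5 CPM with vehicle (SD, n = 3 each), or 0.10 ± 0.02 on the log2 scale (adjusted p = 0.00073). Uninduced cells were lower at that time, at 1948 ± 65.3 CPM, so that KIRA9 cells were 0.77 ± 0.02 above them on the log2 scale (adjusted p = 1.3e-16).

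ENSRNOG00000047573 had the largest rise under the rule for printed IDs, which asks for a call, libraries that do not overlap, and 5 CPM or more on average in whichever group is higher. It was at 7.62, 3.52 and 8.72 CPM in KIRA9 libraries and at 0.344, 0.808 and 0.418 CPM in induced vehicle libraries, a log2 change of 3.70 ± 0.58 (adjusted p = 0.00010). Here the induced vehicle libraries were the ones that differed from the rest. Uninduced libraries at 4 h held 6.87, 10.9 and 9.59 CPM and PAIR1 libraries 7.29, 12.9 and 2.25 CPM, and the PAIR1 values were widely spread. KIRA9 and uninduced cells were not called different (-0.45 ± 0.42, 95% interval -1.32 to 0.42, adjusted p = 0.59). At 24 h the induced vehicle libraries held 7.66, 12.6 and 9.89 CPM, so among induced vehicle libraries the low level was in those titled 4 h. Under the time characteristic, which contradicts those titles, the log2 change for KIRA9 turned to -0.592 and was not called (adjusted p = 0.221).

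ENSRNOG00000012864 had the smallest adjusted p among lower IDs, was also chosen for that after its values were seen, and is an ID that induction raised. It was at 403, 402 and 404.5 CPM in KIRA9 libraries, against 812, 798 and 745 CPM in induced vehicle libraries, with no overlap. The log2 change was -0.96 ± 0.05 (adjusted p = 1.1e-12). Uninduced libraries stood far lower, at 115, 116 and 108 CPM, so that KIRA9 cells remained 3.56-fold above uninduced cells (log2 change 1.83 ± 0.05, adjusted p = 1.4e-17), where induced vehicle cells were 6.93-fold above them. PAIR1 libraries were at 663, 656 and 623 CPM, below induced vehicle cells (log2 change -0.28 ± 0.05, adjusted p = 0.00098) and above KIRA9 cells.

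ENSRNOG00000018736 had the largest fall under the rule, and it is the least certain of the 4. The KIRA9 libraries held 0.885, 0.332 and 1.08 CPM. The induced vehicle libraries held 1.13, 7.20 and 12.6 CPM, so that the lowest of them was close to the highest KIRA9 library. The log2 change was -3.16 ± 0.85 with an adjusted p of 0.016, and it was not called without induced vehicle replicate 3 (-2.39, adjusted p = 0.11), without KIRA9 replicate 1 (-3.26, adjusted p = 0.052) or without KIRA9 replicate 2 (-2.81, adjusted p = 0.081). Among uninduced libraries the ID also varied, at 5.29, 5.84 and 12.2 CPM.

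**Figure D4:**
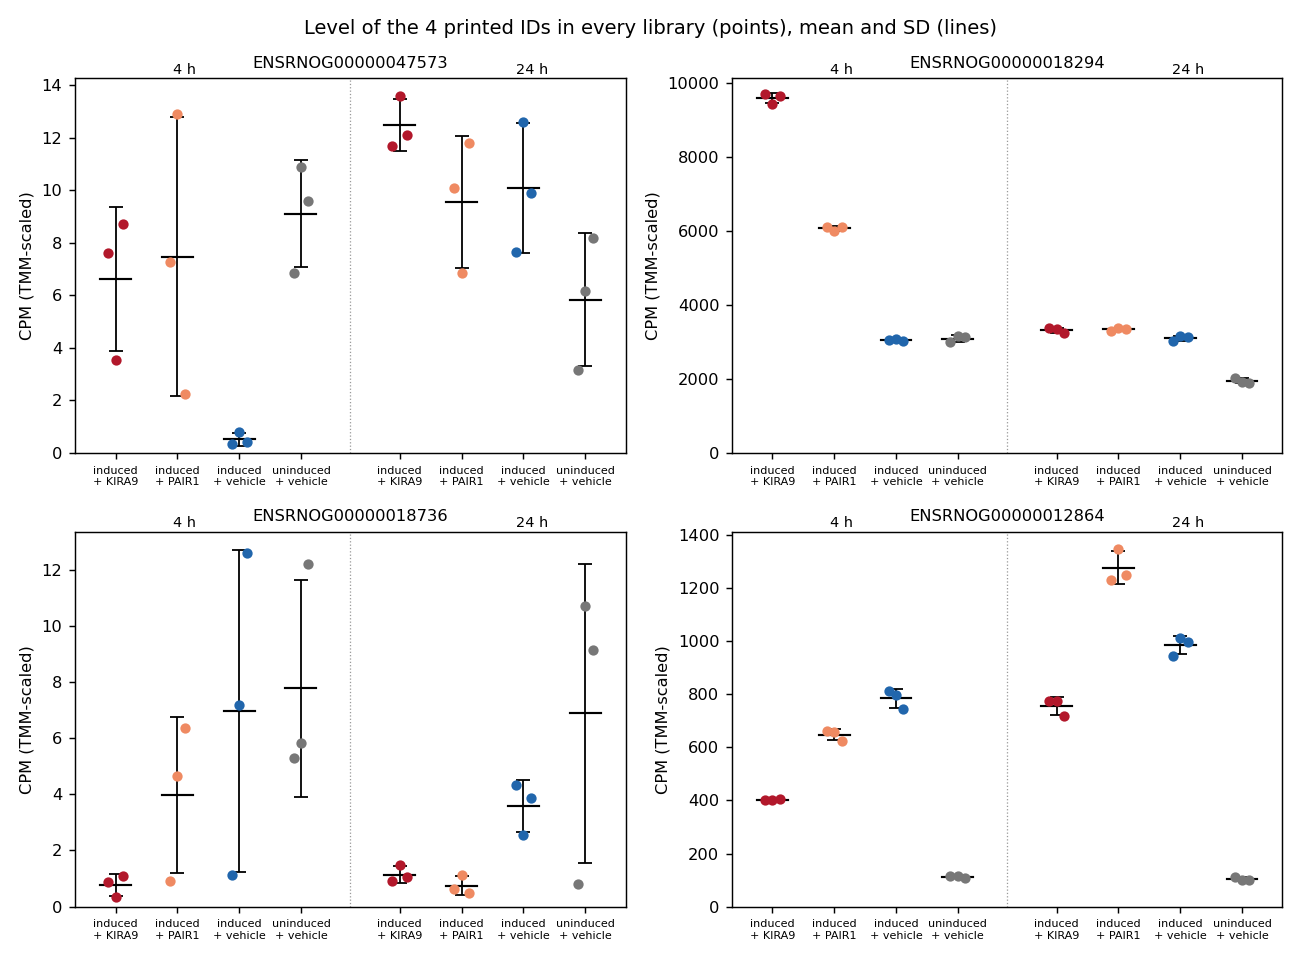
Each panel is 1 printed ID, with the level in every library in CPM on the vertical axis and the 4 treatments at 4 h and at 24 h on the horizontal axis; points are libraries, and lines are the mean and SD of 3. ENSRNOG00000018294 is highest with KIRA9 at 4 h (mean 9593 CPM), ENSRNOG00000047573 is lowest with vehicle in induced cells titled 4 h (0.523 CPM), ENSRNOG00000012864 stays above uninduced cells in every induced group, and ENSRNOG00000018736 spreads widely within both vehicle groups at 4 h.

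The rule took the 12 largest changes in each direction, and their calls in other libraries are given beside the share of all IDs called. The 12 higher picks changed by 1.40 to 3.70 on the log2 scale, at levels of 6.62 to 9593 CPM with KIRA9 and 0.523 to 3052 CPM with vehicle. PAIR1 against uninduced cells at 4 h, a comparison of 6 other libraries, called 11 of them higher and 0 lower, where 1.56% of all IDs were higher and 0.988% lower; the ID not called was ENSRNOG00000047573. At 24 h KIRA9 against induced cells called 5 of the 12 higher and 3 lower, where 32.3% of all IDs were higher and 30.6% lower, so these counts lie near the share of all IDs. The 12 lower picks changed by -3.16 to -0.67 and their levels ran to 403 CPM with KIRA9 and 785 CPM with vehicle. Of these, 2 were higher and 1 was lower with PAIR1 than in uninduced cells at 4 h, set against the same 1.56% and 0.988%. Both that were higher, ENSRNOG00000012864 among them, were also called higher with induction alone at 4 h. With KIRA9 at 24 h, 0 were higher and 9 were lower than in induced cells, set against 32.3% and 30.6%. No difference between the 2 directions was tested. A spread above 4-fold within the KIRA9 or the induced vehicle libraries at 4 h was seen in 0 of the higher and 2 of the lower picks.

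Against uninduced cells, the question is where KIRA9 left the cells at 4 h. KIRA9-treated induced cells had 749 IDs higher (5.44%) and 756 lower (5.49%) than uninduced cells, 58 and 8 of them by at least 2-fold. Induction with vehicle had moved few IDs by then, with 5 higher (0.0363%) and 36 lower (0.262%) than in uninduced cells, and 833 at an unadjusted p below 0.05. KIRA9-treated cells thus differed from uninduced cells in 1505 IDs at a time when induced vehicle cells differed from them in 41. Both comparisons share the uninduced libraries. With the libraries that stand apart left out, which removes uninduced replicate 2, the KIRA9 counts were 488 higher and 456 lower. DESeq2 called 70 IDs for induction at 4 h, and a fit of the 6 compared libraries alone called 27.

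PAIR1 and KIRA9 were compared directly at 4 h, with doses that the labels do not give. With KIRA9, 170 IDs were higher (1.24%) and 113 lower (0.821%) than with PAIR1. The median log2 change was 0.35 among the higher and -0.19 among the lower IDs, and at least 2-fold differences were seen in 8 higher and 0 lower IDs. ENSRNOG00000018294 was 1.58-fold higher with KIRA9 than with PAIR1 (log2 change 0.66 ± 0.02, adjusted p = 9.3e-15), and ENSRNOG00000012864 was 1.61-fold lower (-0.68 ± 0.05, adjusted p = 1.5e-09). For ENSRNOG00000047573 the difference was -0.16 ± 0.42, with a 95% interval of -1.04 to 0.72, and it was not called (adjusted p = 0.94). For ENSRNOG00000018736 it was -2.37 ± 0.86, with a 95% interval of -4.17 to -0.58 before adjustment over IDs, and was not called either (adjusted p = 0.21). The number lower with KIRA9 fell to 60 without PAIR1 replicate 1, 63 without PAIR1 replicate 3, 64 without KIRA9 replicate 1, 63 without KIRA9 replicate 2 and 72 without KIRA9 replicate 3. The total was 187 without PAIR1 replicate 1.

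PAIR1 could also be set beside KIRA9 without a shared library, by taking PAIR1 against uninduced cells at 4 h. That comparison called 215 IDs higher (1.56%) and 136 lower (0.988%). Of the 827 IDs raised by KIRA9 over induced vehicle cells, 166 were called higher and 2 lower, which is 20.1% of the KIRA9 list and 77.2% of the PAIR1 list. Of the 779 lowered by KIRA9, 99 were called lower and 2 higher, 12.7% of the KIRA9 list and 72.8% of the PAIR1 list. Counting every ID whether called or not, 88.1% of the raised IDs had a positive log2 change with PAIR1, against 51.1% of all IDs and 14.9% of the lowered IDs. The median log2 change of the raised IDs was 0.125 with PAIR1 over uninduced cells and 0.34 with KIRA9 over induced cells, and KIRA9 chose the list, which favours the larger value. The other pairing without a shared library, KIRA9 against uninduced and PAIR1 against induced vehicle cells, gave 205 shared higher IDs, 27.4% of the 749 of KIRA9 and 64.5% of the 318 of PAIR1 (2.31% of all IDs). It gave 91 shared lower IDs, of the 756 of KIRA9 and of the 122 of PAIR1 (74.6% of these; 0.887% of all IDs were in the PAIR1 list). Without the 6 libraries that stand apart, 8.03% of the lowered IDs were lower with PAIR1 than in uninduced cells.

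At 24 h, in 6 other libraries, many of the IDs that KIRA9 had moved at 4 h were moved in the same direction. KIRA9 against induced vehicle cells at 24 h called 4451 IDs higher (32.3%) and 4209 lower (30.6%). Of the 827 IDs raised at 4 h, 534 were higher (64.6%) and 140 lower (16.9%) at 24 h. Of the 779 lowered at 4 h, 445 were lower (57.1%) and 198 higher (25.4%). The shares over all IDs were not matched for abundance, with which the calls at 4 h varied. Against uninduced cells at 24 h, where KIRA9 had 1735 IDs higher (12.6%) and 1486 lower (10.8%), 357 of the raised IDs were higher (43.2%) and 107 lower (12.9%). Of the lowered IDs 309 were lower (39.7%) and 77 higher (9.88%). Of the 57 IDs raised at least 2-fold at 4 h, 25 were higher, 11 lower and 21 not called against induced cells at 24 h.

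The IDs that KIRA9 moved early were also set against induction at 24 h, a comparison of 6 other libraries. Induced vehicle cells had 4102 IDs higher (29.8%) and 4401 lower (32.0%) than uninduced cells at 24 h. Of the 827 IDs raised by KIRA9 at 4 h, 440 were among those that induction later lowered (53.2%) and 212 among those it raised (25.6%). Of the 779 lowered by KIRA9 at 4 h, 346 were among those that induction later raised (44.4%) and 253 among those it lowered (32.5%). IDs not called for induction at 24 h made up 21.2% of the raised, 23.1% of the lowered and 38.2% of all IDs. Here too the shares over all IDs were not matched for abundance, so an excess over them is not a link to KIRA9. The IDs raised at least 2-fold by KIRA9 were divided evenly, with 15 raised by induction, 15 lowered and 27 not called. Among the 440 raised early by KIRA9 and lowered by induction at 24 h, KIRA9-treated cells at 24 h were above uninduced cells in 156 IDs (35.5%) and below them in 100 (22.7%). Over all 4401 IDs lowered by induction these shares were 14.0% and 18.2%. Among the 212 raised both by KIRA9 at 4 h and by induction at 24 h, KIRA9-treated cells at 24 h were above uninduced cells in 130 (61.3%) and below in 1 (0.472%), against 20.1% and 6.8% of all 4102 IDs raised by induction. These counts share the uninduced libraries with the induction call.

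**Figure D5:**
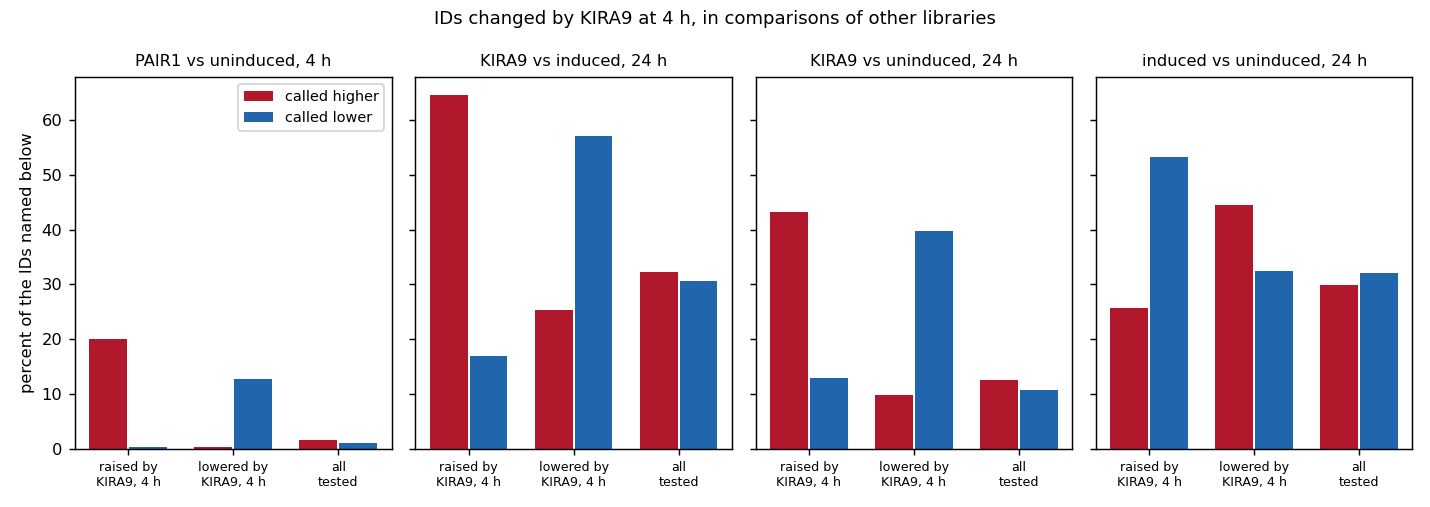
The bars give the percent of IDs called higher (red) or lower (blue) in 4 comparisons, none of which uses a KIRA9 or an induced vehicle library of 4 h, for the 827 IDs raised and the 779 lowered by KIRA9 over induced vehicle cells at 4 h and for all 13760 IDs tested. The raised IDs are called higher in 20.1, 64.6 and 43.2% in the first 3 panels and lower in 53.2% in the last, where all IDs give 1.56, 32.3, 12.6 and 32.0%.

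Whether the KIRA9 effect changed with time was tested directly as the effect at 24 h minus the effect at 4 h. It was more positive at 24 h in 3764 IDs (27.4%) and more negative in 3081 (22.4%). The induced vehicle group, the reference of both effects, differed from uninduced cells in 41 IDs at 4 h and 8503 at 24 h. For ENSRNOG00000018294 the difference between times in log2 change was -1.56 ± 0.03 (adjusted p = 2.1e-20). Its mean level at 4 h and 24 h was 9593 and 3313 CPM with KIRA9, and 3052 and 3099 CPM with vehicle. For ENSRNOG00000047573 the difference was -3.38 ± 0.72 (adjusted p = 0.00043). There the means were 6.62 and 12.5 CPM with KIRA9, and 0.523 and 10.1 CPM with vehicle. For ENSRNOG00000012864 the effect was less negative at 24 h, with a difference of 0.58 ± 0.07 (adjusted p = 1.5e-07). The log2 change from induced vehicle cells was -0.38 ± 0.05 at 24 h and -0.96 ± 0.05 at 4 h. The fall of ENSRNOG00000018736 was not called at 24 h (-1.65 ± 0.81, adjusted p = 0.083), and the difference between times was not called either (1.51 ± 1.2, adjusted p = 0.32). These tests contain the 4 h values by which the 4 IDs were chosen.

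The time of the induced vehicle libraries rests on their titles and column names. Induced vehicle libraries titled 4 h differed from uninduced libraries at 4 h in 41 IDs. Uninduced libraries at 24 h differed from those at 4 h in 3739 IDs. For 6 libraries, those of induced vehicle cells, the time characteristic contradicts the title, and taking that characteristic instead gave 4654 higher and 4285 lower IDs for KIRA9 at 4 h.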

How the data were processed

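Poly(A) RNA of 24 INS1 samples was sequenced after NEBNext Ultra II library preparation, per the labels' protocols. The authors deposited 1 table of raw counts, not normalized, with a row for each Ensembl ID. Per the submitters' processing notes, HISAT2 and HTSeq were used (no version). Strand setting, annotation and genome build are not given in the sources used here; overlapping, antisense and near-identical genes may share reads.

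Columns were assigned by name and title, the Control columns to the uninduced samples. IDs were kept with edgeR 4.0.16 filterByExpr (13760 of 26689; 6523 had no count). A group-mean quasi-likelihood model with TMM scaling was fitted to all 24 libraries in R 4.3.3. The SE is the log2 change divided by the root of the F statistic. Libraries held 12.6 to 23.8 M counts, so a count of 0 allows up to 3 counts, or 0.126 to 0.238 CPM, for counting error only. No replicate pair at 4 h agreed within sampling noise (chi-square per degree of freedom 3.52 to 13.2). On simulated data for KIRA9 against induced vehicle cells at 4 h (3 simulations, 200 of 13760 IDs changed), 42.0% of IDs changed by 0.3 log2 units, 65.3% by 0.5, 90.0% by 1 and 93.3% by 1.5 were recovered, and 5.01% of calls were false. The simulated counts were drawn from the fitted model itself, IDs of very low level were left unchanged, and no library was made to stand apart. These rates hold for that setting and are not error rates of the calls in the data.

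The comparison, lists and tests were chosen with earlier results of these data known, and the comparisons without a shared library were added after the data were seen. The rule for printed IDs took up to 12 called IDs a direction with the largest change, at least 5 CPM and no overlap, and a further condition, on symbols, was dropped for lack of names. Printed were the first of each direction and, chosen afterwards, the ID with the smallest adjusted p. Alternatives were RLE scaling, no filter, DESeq2 1.42.0, the compared libraries alone, a replicate block, a threshold of 0.01, leaving out libraries and the other time label.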

Additional observations from a re-analysis of the deposited data

Results flagged for a closer look

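The effect of KIRA9 over induced vehicle cells differed between 24 h and 4 h in 6845 IDs by the interaction test of edgeR's quasi-likelihood model. It stood out because the same comparison gave different changes at the 2 times. The difference holds the change of induced vehicle cells with time as well as that of KIRA9 cells. Induced vehicle cells differed from uninduced cells in 41 IDs at 4 h and in 8503 at 24 h. Among the printed IDs the difference, 24 h minus 4 h, was -3.38 on the log2 scale for ENSRNOG00000047573, -1.56 for ENSRNOG00000018294 and 0.58 for ENSRNOG00000012864. Depth was alike at both times, with 17.0 ± 2.99 M counts for KIRA9 at 24 h and 15.7 ± 1.11 M at 4 h (SD, n = 3 each). Induced vehicle groups, at 16.2 ± 3.10 M counts at 24 h and 17.5 ± 2.92 M at 4 h, each include libraries that stand apart, 2 at 24 h and 1 at 4 h, and without the 6 such libraries 5549 IDs were called.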

How the results depend on the processing

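RLE scaling, no filter, DESeq2 and a fit of the compared libraries alone gave 1607, 1397, 1518 and 1226 IDs for KIRA9 against induced vehicle cells at 4 h. At an adjusted p below 0.01 there were 884 (506 higher, 378 lower), against uninduced cells 805 (430 and 375), against PAIR1 167 (49 lower), and for induction at 4 h 27 (3 higher). Induction at 4 h gave 70 IDs with DESeq2 (63 lower), 9 higher without a filter, and 27 (23 lower) with the compared libraries alone. Without the 6 libraries that stand apart, a choice made after seeing the data, KIRA9 gave 966 against induced vehicle (386 lower), 944 against uninduced (488 higher, 456 lower) and 75 lower against PAIR1. Under the time characteristic in place of the title, KIRA9 against induced vehicle gave 8939 (4654 higher, 4285 lower) and induction 8700 (4251 and 4449), and 45.8% of the IDs whose KIRA9 effect differed by time were more positive at 24 h, against 55.0%. There ENSRNOG00000047573 stood at -0.592 for KIRA9 against induced vehicle, 0.143 for induction and 5.2 for the difference between times, ENSRNOG00000018294 at 0.0037 for induction, and ENSRNOG00000018736 at -0.378 for the difference between times. Leaving out 1 library at a time gave 1128 to 1324 IDs against induced vehicle (615 to 707 higher, 512 to 617 lower), 1068 to 1205 against uninduced (539 to 609 and 506 to 598), 28 to 40 for induction (3 to 7 and 25 to 35), 187 to 227 against PAIR1 (127 to 155 and 60 to 76) and 6462 to 6583 between times (3621 to 3676 and 2821 to 2925); 3 higher for induction came without induced vehicle or uninduced replicate 1. It turned ENSRNOG00000047573 against PAIR1 (range -0.6 to 0.498) to 0.145 without KIRA9 replicate 2 and 0.498 without PAIR1 replicate 2, and ENSRNOG00000018736 for induction (range -0.93 to 0.356) to 0.356 and 0.319 (without induced vehicle replicate 1 or uninduced replicate 3). Same-numbered KIRA9 and induced vehicle libraries deviated with correlations of 0.0355, 0.0107 and -0.0188, and differently numbered ones with -0.0337 to 0.0234. For KIRA9 and uninduced libraries at 4 h the same-numbered values were 0.0313, 0.0297 and 0.0208, and the others -0.0318 to 0.00615. With 3 libraries a group, these values cannot show whether the numbers pair libraries. A replicate block gave 1612 IDs against 1606 without it, 1497 against uninduced, 283 against PAIR1, 44 for induction and 6841 between times. The cause of these shifts was not tested. Levels near 3 counts per library (0.126 to 0.238 CPM) limit IDs at the bottom of the lowest band of abundance (0.162 to 6.16 CPM).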
